A study of Mus musculus with 6 samples.

Results

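The microRNAs miR-182, miR-183 and miR-96 were followed in the exosomes of mouse macrophages that had been kept on titanium. Their members were found by name in the deposited table of small RNA sequences, whatever the species prefix or the variant suffix, and 3 rows were found among 2731, or 3 distinct sequences among 2704. The libraries came from exosomes of RAW264.7 cells, a mouse macrophage line. The cells were cultured either on Ti6Al4V disks with small-scale topography, which the labels call micro-/nano- and which were sandblasted, acid etched and treated with hot alkali (3 libraries), or on polished smooth disks of the same alloy (3 libraries). Both groups shared the cell line and an exosome-free medium, no genetic change or drug was used, and the time on the disks is not given in the sources used here. RAW264.7 is 1 transformed line, and the methods say in general that the experiment was repeated independently, but the labels do not say whether the 3 libraries of each kind of disk are separate cultures; a p-value here thus reflects only how these libraries spread, which may be technical.

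The 3 microRNAs belong to the miR-183 family and are made from 1 primary transcript, out of which each hairpin is cut and trimmed to a mature strand. The mature strand is loaded into an Argonaute protein and finds its targets mainly through the seed, bases 2 to 8 from its 5′ end. The cluster is best known from sensory organs and epithelia, and changes in the seed of miR-96 cause hearing loss in mice and humans. In bone, miR-182 is known to restrain osteoblasts by targeting Foxo1 and to promote the formation of mouse osteoclasts, cells that arise from the macrophage lineage, and miR-183 is also known to favour osteoclast formation.

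All 3 listed sequences came from the 5p arm, and each differed from the mature strand in RefSeq at 1 end or both. They are shown because the variants decide which seed each sequence carries. The deposited sequences are written with T for U, and the seed, bases 2 to 8, is in capitals.
miR-182_R-7: tTTGGCAAtggtagaact
miR-96-5p_R-4: tTTGGCACtagcacatttt
miR-183-5p_L-1R+1: aTGGCACTggtagaattcactg

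The 5p strands of the same genes in RefSeq (GRCm38.p6), with the seed in capitals, are given for comparison.
mmu-miR-182-5p: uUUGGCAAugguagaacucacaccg
mmu-miR-96-5p: uUUGGCACuagcacauuuuugcu
mmu-miR-183-5p: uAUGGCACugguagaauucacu

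The miR-182 sequence had 18 nt, the shortest length in the table, and ended 7 bases before the 25-nt strand in RefSeq. Its 5′ end and its seed were those of RefSeq. The miR-96 sequence had 19 nt, ended 4 bases early and also kept the seed. The miR-183 sequence had 22 nt, began 1 base late and ended 1 base late, so its seed, TGGCACT, was shifted from ATGGCAC, the seed of the strand in RefSeq. Over bases 2 to 7, miR-182 and miR-96 shared TTGGCA. Over bases 2 to 8 of the RefSeq strands, 6 of 7 bases were equal between miR-96 and miR-182, 6 between miR-183 and miR-96, and 5 between miR-183 and miR-182. Among the 436 distinct sequences with the name of a mature microRNA, 48 had 18 nt, 5 (1.15%) ended 7 or more bases early and 50 (11.5%) began 1 or more bases late.

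The names carry the prefix of the rat, but each sequence matched exactly 1 mouse hairpin and 1 annotated gene (GENCODE M21, GRCm38). All 3 genes are on the minus strand of chromosome 6. Mir183 (30169668 to 30169737) comes first in the direction of transcription, followed after 116 bases by Mir96 (30169446 to 30169551) and after another 3453 bases by Mir182 (30165918 to 30165992). The listed sequences lay at 30169710 to 30169731 for miR-183, at 30169510 to 30169528 for miR-96 and at 30165969 to 30165986 for miR-182. The span of 3820 bases overlaps no other annotated gene and lies between the coding genes Nrf1, 12459 bases away, and Ube2h, 41551 bases away. The hairpins follow in the order of transcription, with the listed bases in capitals.
Mir183: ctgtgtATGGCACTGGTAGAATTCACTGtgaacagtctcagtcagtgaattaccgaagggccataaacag
Mir96: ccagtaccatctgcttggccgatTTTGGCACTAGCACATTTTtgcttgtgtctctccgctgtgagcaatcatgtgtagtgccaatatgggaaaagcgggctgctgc
Mir182: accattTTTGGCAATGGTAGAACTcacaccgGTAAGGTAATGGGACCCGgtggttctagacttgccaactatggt

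The second run of capitals in Mir182 is a further listed sequence, mir-182-p3, which the naming rule leaves out. Its 18 bases, 32 to 49 of the hairpin, fill the loop exactly, between the last base of the 5p strand (31) and the first base of the 3p strand (50). All 3 small-scale topography libraries listed it at 0, and smooth replicates 1 to 3 listed it at 0, 6.99 and 7.23, which are 0, 15 and 6 reads. The limit of listing, about 5 reads, was worth 6.43, 7.77 and 5.25 in replicates 1 to 3 of small-scale topography. A listed 0 there can thus stand for a value not far below those of the smooth libraries. No row held the inner 14 bases of the 3p strand of any of the 3 genes, and no other listed sequence lay in their hairpins.

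**Figure D1:**
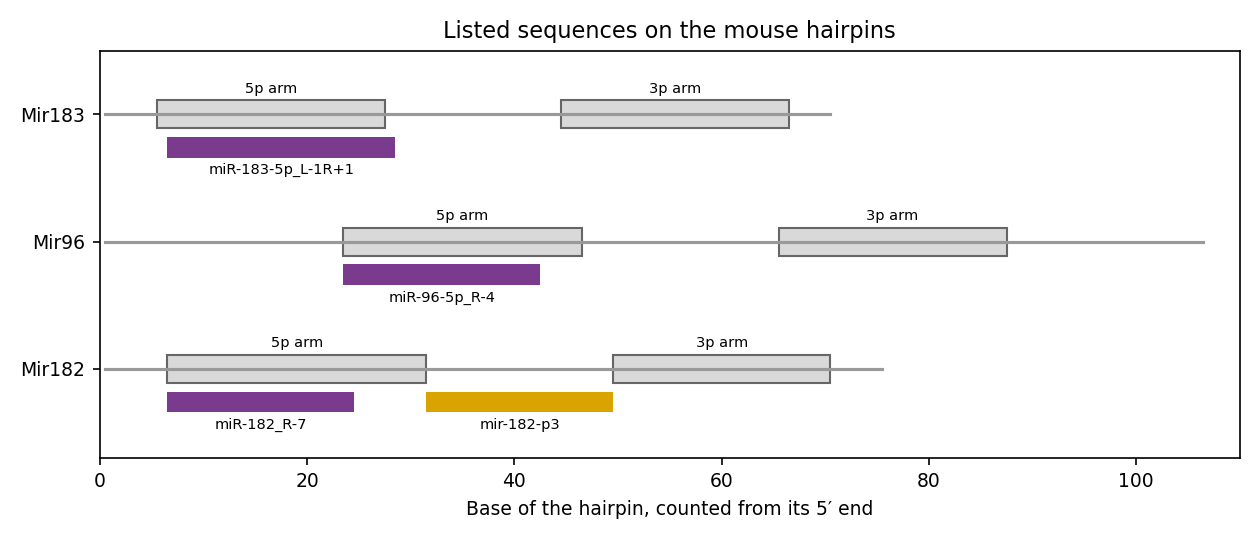
Position of the listed sequences on the mouse hairpins of Mir183, Mir96 and Mir182, in bases from the 5′ end of each hairpin. Grey boxes are the mature strands in RefSeq, purple bars the 3 members and the yellow bar mir-182-p3; the members lie on the 5p strands, and mir-182-p3 fills the 18 bases between the 2 strands of Mir182.

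The values are the authors' normalized values, 1 per sequence and library. The sources used here do not say whether such a value counts the listed sequence alone or sums all variants of its name, and this holds for every member value, read number and ratio given here. Within a library most values were whole multiples of a common step. With that step read as 1 sequenced read, the table held 163845 to 264827 reads per library for small-scale topography and 194510 to 604081 for smooth disks. All listed values of the members were whole reads within 0.02 reads. Sequences under about 5 reads were mostly not listed (in each library, 1.78% to 7.95% of the values above 0 lay below 5 reads), so a listed 0 can stand for a low value. Of the macrophage markers, miR-142, miR-146a and miR-155 were listed in all 6 libraries, while miR-223 was listed at 0 in replicates 1 and 3 of small-scale topography.

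Of the members, miR-182 was the most abundant in every library, but the whole cluster was a small part of these exosomes. By the mean over 6 libraries, miR-182_R-7 (75.9) ranked at 129, miR-183-5p_L-1R+1 (27.1) at 206 and miR-96-5p_R-4 (6.06) at 380 among the 536 sequences whose values sum to at least 20. The 3 sequences together had normalized values of 129.9, 74.6 and 59.9 in replicates 1 to 3 of small-scale topography, against 146, 150.1 and 94.0 on smooth disks. The sum averaged 88.1 ± 36.9 with small-scale topography, against 130.1 ± 31.3 with smooth disks (SD, n = 3 each), and the groups overlapped. As a share of the listed total, the sum was 0.0616%, 0.0266% and 0.0215% with small-scale topography, against 0.0537%, 0.0533% and 0.0401% on smooth disks.

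miR-182, which targets Foxo1, was lower on small-scale topography in every library by the deposited values, but it did not pass the test across all sequences. miR-182_R-7 had normalized values of 77.2, 40.4 and 51.5 in replicates 1 to 3 of small-scale topography (60, 26 and 49 reads), against 102, 96.9 and 88.0 in replicates 1 to 3 of smooth disks (123, 208 and 73 reads). The groups did not overlap, and the smooth libraries lay closer together than those of small-scale topography. The means were 56.3 ± 18.9 with small-scale topography, against 95.5 ± 6.91 on smooth disks (SD, n = 3 each), a ratio of 0.59. From limma on log2(value + 1), the log2 fold change was -0.80 (standard error 0.44, 95% confidence interval -1.69 to 0.095, unadjusted p = 0.0777, adjusted p = 0.823). The exact permutation test of the means (two-sided) gave p = 0.1, the smallest p that 3 libraries against 3 allow.

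The counting error alone was smaller than this difference in 2 of the 3 libraries of small-scale topography. The exact Poisson intervals (95%, counting error only, on the normalized scale) were 58.9 to 99.3, 26.4 to 59.2 and 38.1 to 68.1 for replicates 1 to 3 of small-scale topography. Those of smooth replicates 1 to 3 were 84.4 to 121, 84.2 to 111 and 69.0 to 110.6. Replicates 2 and 3 of small-scale topography thus lay below all smooth intervals, while the interval of replicate 1 overlapped all 3 of them.

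**Figure D2:**
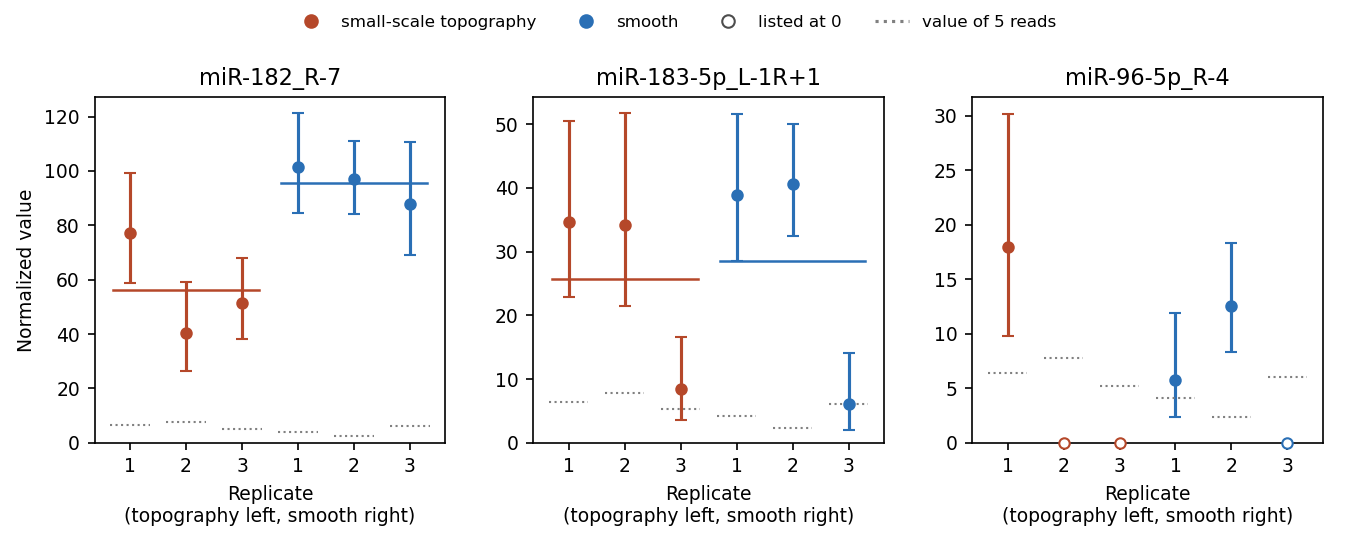
Normalized value of each member in the 6 libraries, with small-scale topography (red) left of smooth disks (blue). Error bars are 95% exact Poisson intervals of the reads, horizontal lines are group means where no library is at 0, open points are listed zeros and dotted lines mark the value of 5 reads in each library; miR-182_R-7 does not overlap between the groups, whereas miR-183-5p_L-1R+1 is low in replicate 3 of both.

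Whether the groups overlap for miR-182 depended on the scaling of the libraries. Replicate 1 of small-scale topography had the smallest listed total, 210677, against 234407 to 281542 in the other 5 libraries. With every library scaled to the same total, miR-182_R-7 had 95.1, 37.4 and 48.0 with small-scale topography, against 96.8, 89.4 and 97.4 on smooth disks. Replicate 1 of small-scale topography then lay above smooth replicate 2, and the other 2 libraries of small-scale topography stayed below all smooth ones. Scaled by the median ratio over the 252 sequences listed in all libraries, the values were 76.6, 40.9 and 50.5 with small-scale topography, against 98.4, 95.01 and 88.0 on smooth disks, without overlap. From limma, the log2 fold change was -0.76 (unadjusted p = 0.131) with equal totals and -0.78 (unadjusted p = 0.0796) with the median ratio.

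**Figure D3:**
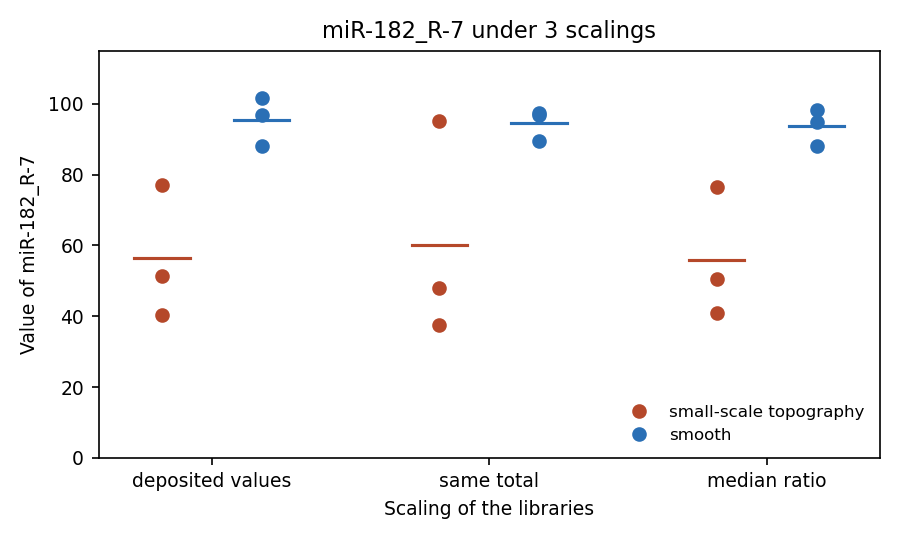
Value of miR-182_R-7 in each library under 3 scalings, with small-scale topography (red) left of smooth disks (blue) and lines at the group means. The groups are apart by the deposited values and the median ratio, and with equal totals 1 library of small-scale topography, at 95.1, lies among the smooth ones.

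For miR-183, which shares its primary transcript with miR-182, the 2 disks gave about the same range of values. miR-183-5p_L-1R+1 had normalized values of 34.7, 34.2 and 8.41 in replicates 1 to 3 of small-scale topography (27, 22 and 8 reads), against 38.8, 40.5 and 6.03 on smooth disks (47, 87 and 5 reads). In both groups replicates 1 and 2 were high and replicate 3 was low. The upper bounds of the 2 low libraries, 16.6 for small-scale topography and 14.1 for smooth, lay under the lowest lower bound of the other 4 libraries, 21.4, so that the spread within a group exceeded the counting error. The labels give no batch that joins the libraries numbered 3. Over all 536 tested sequences, the deviations of these 2 libraries from their group means had a correlation of 0.025. A correlation over all sequences cannot decide whether a batch joins these libraries for miR-183, and the cause was not tested. The means were 25.8 ± 15.0 with small-scale topography, against 28.5 ± 19.4 on smooth disks (SD, n = 3 each). The log2 fold change was 0.0082 (standard error 0.83, 95% confidence interval -1.68 to 1.70, adjusted p = 0.994 from limma), an interval that reaches far in both directions. By the two-sided exact permutation test, p was 0.6.

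miR-96 was near the limit of listing. miR-96-5p_R-4 was listed at 18.002, 0 and 0 in replicates 1 to 3 of small-scale topography (14, 0 and 0 reads) and at 5.78, 12.6 and 0 on smooth disks (7, 27 and 0 reads). Its highest value was that of replicate 1 of small-scale topography, and the groups overlapped. A listed 0 need not be lower than a listed value here, since 5 reads are worth 7.77 in replicate 2 of small-scale topography, more than the 5.78 of smooth replicate 1. The log2 fold change was -0.76 (standard error 1.70, 95% confidence interval -4.23 to 2.71, adjusted p = 0.922 from limma), a value that depends on the pseudocount, and p was 1.0 by the two-sided exact permutation test.

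The members did not keep a fixed proportion, although they arise from 1 transcript. miR-183-5p_L-1R+1 over miR-182_R-7 was 0.45, 0.846 and 0.163 in replicates 1 to 3 of small-scale topography, against 0.382, 0.418 and 0.0685 on smooth disks. The ratio averaged 0.486 ± 0.343 with small-scale topography, against 0.290 ± 0.192 on smooth disks (SD, n = 3 each), and the groups overlapped. Without replicate 2, the mean of small-scale topography was 0.307. miR-96-5p_R-4 over miR-182_R-7 was 0.233 in replicate 1 of small-scale topography, 0.0569 in smooth replicate 1 and 0.130 in smooth replicate 2, the only libraries that listed miR-96. In these 3 libraries miR-96 was also below miR-183, at 0.519, 0.149 and 0.310 of it. In every library the order was miR-182, miR-183 and miR-96. The table gave 1 listed sequence per member, so shares of variants could not be compared.

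Across the 536 sequences tested, no sequence passed an adjusted p of 0.05 with limma (0%), and 12 (2.24%) had an unadjusted p under 0.05. None of the 3 members was among either. By the deposited values, 1 of the 3 members, miR-182_R-7, had all 3 small-scale topography values below all 3 smooth values, as did 27 (5.04%) of the 536 sequences. Its unadjusted p ranked at 24 of 536, and 113 sequences (21.1%) had a more negative log2 fold change. In bulk exosome RNA, fewer vesicles that carry a microRNA and less of it per vesicle cannot be told apart. Nor can fewer cells of the line that release it and less of it released per cell.

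**Figure D4:**
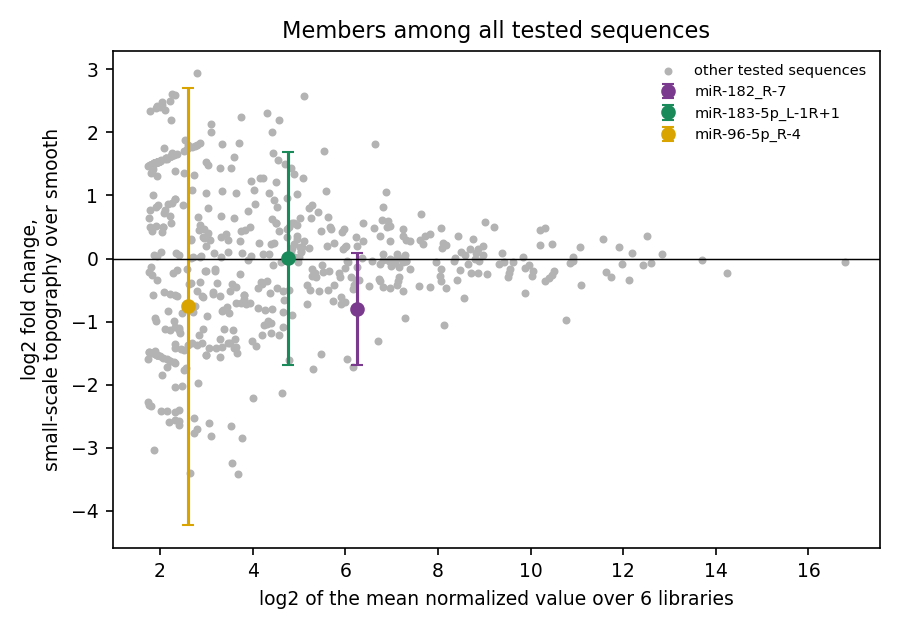
Log2 fold change, small-scale topography over smooth disks, of the 536 tested sequences against the log2 of their mean normalized value. The 3 members are coloured with their 95% confidence intervals from limma, all of which include 0; miR-182_R-7 lies at -0.80, with 113 sequences more negative.

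The sequences whose levels ran most like miR-182_R-7 over the 6 libraries were those of miR-99a-5p_R-1 (r = 0.914), miR-29b-3p_R-4 (0.906), miR-191a-5p_R-3 (0.888), miR-22-3p (0.842) and miR-29a-3p_R-3 (0.834). These are Pearson correlations of log2(value + 1) over 6 libraries, the highest of 250 other sequences listed in all of them, and all points share library and scaling. miR-29a and miR-29b are members of 1 family, known for repressing collagens and other matrix genes. miR-29b-3p_R-4 had 18.002, 6.21 and 17.9 with small-scale topography, against 27.7, 28.2 and 22.9 on smooth disks. By the deposited values, only miR-22-3p of the 5 overlapped between the groups. For the other 4 the small-scale topography values lay below all smooth values, as for 27 (5.04%) of all 536 sequences. Choosing sequences that run like miR-182_R-7 largely sets this separation, and, as for miR-182_R-7, it can depend on the scaling. miR-99a-5p_R-1, of a microRNA known to regulate mTOR, was at 1192 to 1341 with small-scale topography, against 1458 to 1670 on smooth disks, and miR-191a-5p_R-3 was at 270.3 to 319 with small-scale topography, against 371 to 529 on smooth disks. In limma, miR-191a-5p_R-3 was the only one of the 5 with an unadjusted p under 0.05 (log2 fold change -0.62, unadjusted p = 0.0351, adjusted p = 0.823). The paper, by its own test, lists miR-99a-5p_R-1 among its downregulated microRNAs. Here limma gave that sequence a log2 fold change of -0.27 and an unadjusted p of 0.277.

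Besides the members, 7 listed sequences shared bases 2 to 7 with a member's strand in RefSeq or carried the shifted seed of the listed miR-183. Of these, 6 were candidates without a microRNA name, none of which reached a summed value of 20. Among the candidates, PC-3p-369671_9 had all of bases 2 to 8 of miR-182, and PC-3p-262701_12 those of miR-96. The seventh, bta-miR-507-3p_R-1, a sequence with a bovine name, had bases 2 to 7 of miR-182 and miR-96 but not their base 8. Small-scale topography gave it 18.002, 23.3 and 67.3, and smooth disks gave it 0, 17.2 and 16.9. It was higher on small-scale topography in every library, as were 10 of the 536 tested sequences, though only 18.002 against 17.2 at the nearest. The log2 fold change was 2.20 ± 1.07 (standard error), with an unadjusted p of 0.0493 and an adjusted p of 0.823 from limma. Its size depends on the pseudocount.

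Other microRNAs of the pathways in which the cluster is known gave no call either. Of 8 tested sequences of other microRNAs known to promote osteoclast formation, 7 lay below 0 and 1 above 0 in log2 fold change (median -0.36), and none passed the adjusted threshold. The most abundant of them were miR-21-5p at -0.054 (standard error 0.36), miR-29a-3p_R-3 at -0.36 (0.25) and miR-148a-3p_R-2 at 0.51 (0.29). Of 8 sequences of microRNAs known to restrain it, 6 were negative and 2 positive (median -0.57) and none passed. miR-146a-5p, which dampens Toll-like receptor signaling, lay at -1.06 (standard error 0.36; from limma, unadjusted p = 0.00575 and adjusted p = 0.823), miR-26a-5p -0.34 (0.45) and miR-34a-5p -0.42 (0.52). Of 7 sequences of other microRNAs known to target Foxo1, 6 were negative and 1 positive (median -0.34), again without a call. They include both arms of miR-27a, miR-27b and miR-139, and the positive one was miR-27a-5p (0.20). miR-27b-3p was at -0.23 (standard error 0.27), miR-27a-3p_R-1 at -0.34 (0.25) and miR-139-5p_R-3 at -0.27 (0.26). These medians stand beside 0.012 over all 536 tested sequences and -0.10 over the 305 of them with a microRNA name, of which 180 were negative and 125 positive. miR-223 belongs to the first and the third list.

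The microRNA markers of cell types were summed over each list. Of 7 names of epithelial microRNAs 5 were listed, and their sum was 6.43 to 41.9 with small-scale topography, against 19.3 to 66.6 on smooth disks. No row carried the names miR-203 or miR-205. All 4 myeloid names were listed, and their sum was 269 to 426 with small-scale topography, against 469 to 726 on smooth disks. This sum did not overlap between the groups, but without miR-146a, which is also in the restraining list, it was 129.9 to 178 with small-scale topography, against 136 to 318 on smooth disks, and overlapped. With equal totals all 4 names overlapped too, at 251 to 524 with small-scale topography, against 519 to 692 on smooth disks. Both of these sums were chosen after seeing the data. Erythroid microRNAs (3 of 6 names) had 90.0 to 119.8 with small-scale topography, against 70.1 to 109.8 on smooth disks, liver microRNAs (3 of 3) 3204 to 3581 against 2319.8 to 3817, and mesenchymal microRNAs (3 of 5) 528 to 765 against 676 to 788. The erythroid names that were not listed, miR-451a, miR-486a and miR-486b, are variants of the listed names miR-451 and miR-486. Of the neuronal pair, no row carried the name miR-9, and miR-124 was listed above 0 in 1 library, as was 1 of 6 names of muscle microRNAs. The part of these cell types in the values of the cluster was not tested.

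**Figure D5:**
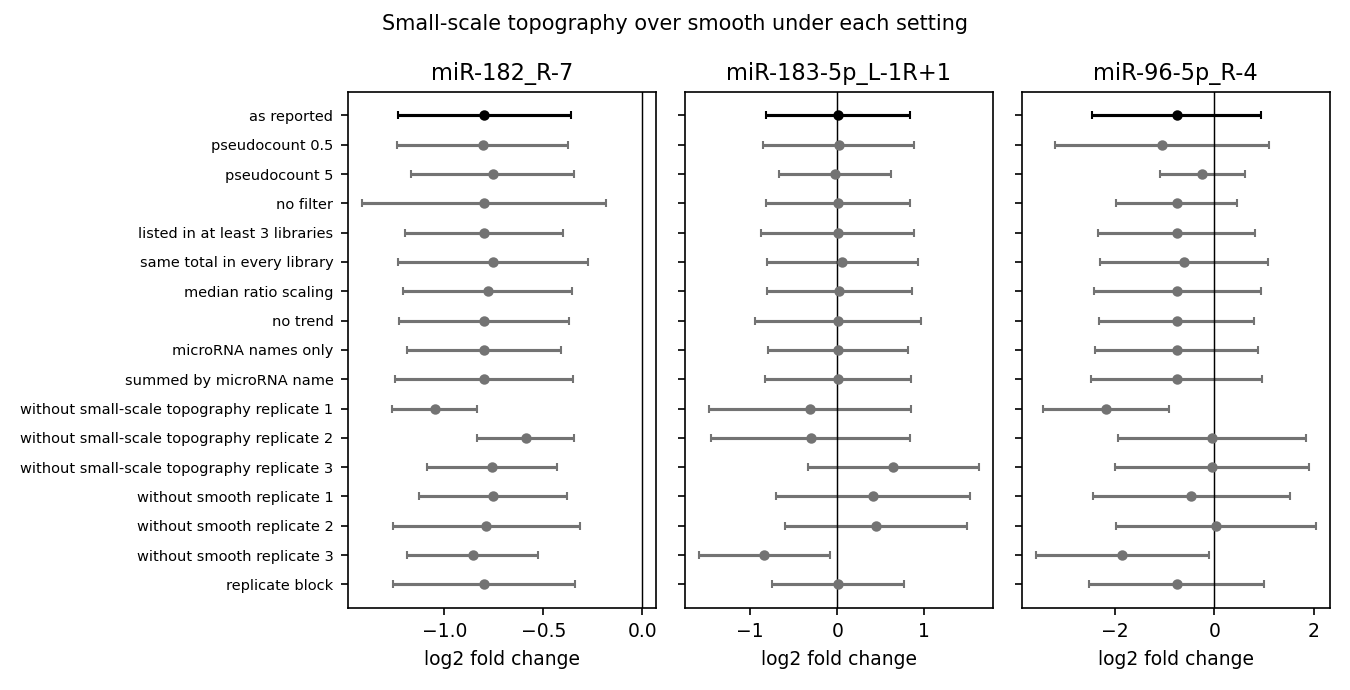
Log2 fold change of each member, small-scale topography over smooth disks, as reported (black) and under each of 16 alternatives (grey), with the standard error from limma as bars. miR-182_R-7 lies below 0 in every row, between -1.05 and -0.59, while miR-183-5p_L-1R+1 and miR-96-5p_R-4 cross 0. For miR-182_R-7 only the scalings could have changed the sign, since its deposited values do not overlap between the groups.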

How the data were processed

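Small RNA of exosomes was sequenced by the authors from TruSeq libraries (3 per disk). They removed adapters, kept 18 to 26 nt, filtered reads matching mRNA, Rfam and RepBase, and used ACGT101-miR. What they deposited is a normalized signal rather than counts; for the scaling factor, program version, miRBase release and build the entry is "not given in the sources used here". In the copy used here, 1 line was empty.

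Members were the rows named miR-182, miR-183 or miR-96, with or without an arm. Members, lists and tests were chosen with earlier results of these data known. Rows with equal sequence and values counted once. limma with a mean-variance trend was fitted across all 536 distinct sequences summing to at least 20, on log2(value + 1), without covariates. Benjamini-Hochberg adjustment was used at 0.05. The fitting code was run on simulated normal values with changes larger than those of the members, which does not measure its power here. Since the values are not counts, no count test was run; 87.9% to 92.6% of the values of a library were whole reads (within 0.02 reads). Named besides the members were the 5 sequences most correlated with the most abundant member and, per list, the 3 with the highest mean and any with an unadjusted p under 0.05. Alternatives were other pseudocounts, filters, scalings and sets of sequences, no trend, each library left out and the replicate number as a block. Hairpins and mature strands came from RefSeq (GRCm38.p6). Fits ran in limma 3.58.1 (R 4.3.3), and all else in Python 3.11.15 with SciPy 1.17.1, Matplotlib 3.10.9, pandas 2.3.3 and NumPy 2.4.6.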

Additional observations from a re-analysis of the deposited data

How the results depend on the processing

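Under none of the 16 alternatives did limma give a member or any other sequence an adjusted p below 0.05, with 7 to 38 sequences at an unadjusted p under 0.05. The log2 fold change of miR-182_R-7 was negative in all 16, from -1.05 to -0.59 with 1 library left out and from -0.80 to -0.75 otherwise. Most of these settings could not have reversed it. Other filters and sets of sequences, no trend and the block leave the value at -0.80 by construction. As the deposited values do not overlap between the groups, another pseudocount or 1 library less cannot change the sign either. Only the scalings could have changed the sign for miR-182_R-7. In limma its unadjusted p was under 0.05 in 1 of them, without small-scale topography replicate 1 (unadjusted p = 0.00646, adjusted p = 0.589), and its adjusted p ranged from 0.494 to 0.964. That of miR-183-5p_L-1R+1 changed sign in 4, with a pseudocount of 5 (-0.026) and with 1 library left out (-0.84 to 0.65, the lowest without smooth replicate 3), and that of miR-96-5p_R-4 in 1, with -2.18 to 0.035 when 1 library was left out (the lowest without small-scale topography replicate 1, the highest without smooth replicate 2). The cause was not tested. The summed value of the members kept a negative log2 ratio of means, -0.95 to -0.35 with 1 library left out and -0.12 without miR-182_R-7, against -0.56. The mean ratio of miR-183 to miR-182 was 0.307 to 0.648 with small-scale topography and 0.225 to 0.4002 on smooth disks when 1 library was left out. Each arm held 1 listed sequence, whose value may or may not already sum variants, so no comparison of variants was possible. With the replicate number as a block, limma put miR-182_R-7 at -0.80 (unadjusted p = 0.0841). By unadjusted p in limma, the block brought 18 sequences below 0.05, against 12 in the main fit. Libraries of equal number had correlations of -0.035, 0.104 and 0.025 in their deviations from the group means. Those of unequal number ranged from -0.153 to 0.140. Since both kinds lay near 0, these correlations cannot decide whether the numbers pair the libraries. The values of miR-96 rest on few reads, 27 or fewer in each library, and the part of depth in them was not tested.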
